A study of Oryza sativa with 4 samples.

Results

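CPS2, CYP76M7 and CYP71Z7 are 3 rice genes that act in the making of diterpenoid phytoalexins, antimicrobial compounds that rice shoots build up after infection or stress. They were taken by gene symbol, synonym or gene number from a table of 17905 genes, and each is measured by 1 probe set, so the data hold 3 of 57258 rice probe sets on each array. The tissue was shoots of rice (Oryza sativa) seedlings that were 18 days old when they were put completely under water in a greenhouse. The 4 groups were M202(Sub1) at 6 days and at 1 day of submergence and M202 at 6 days and at 1 day, with 1 Affymetrix array each. M202 is a japonica cultivar that tolerates flooding poorly. M202(Sub1) is a near-isogenic line of M202 into which the Sub1 flooding tolerance locus was brought by crossing, so any other donor segment it carries cannot be told apart from Sub1. All plants were submerged, and no unsubmerged shoots were compared. Time under water therefore cannot be told apart from the age of the plants. The 3 genes were chosen by their measured log2 differences between these same arrays, between genotypes and between times. Their values are therefore a description, no test was made on them, and with 1 array per group the spread between plants was not measured.

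Phytoalexin synthesis in rice starts in the plastid with geranylgeranyl diphosphate. A copalyl diphosphate synthase folds this precursor, a kaurene synthase-like enzyme (KSL) closes the last ring, and cytochrome P450s add oxygen. CPS2 makes the ent form of copalyl diphosphate for defence, while its relative CPS1 makes the same product for gibberellin hormones and CPS4 makes the syn form for momilactones. KSL7 turns the CPS2 product into a cassadiene, and CYP76M7 and CYP71Z7 are P450s that hydroxylate it on the way to phytocassanes. Genes for phytocassanes lie together on chromosome 2 and genes for momilactones on chromosome 4.

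The names were checked against the annotation used. CPS2 (LOC9266189) and CYP71Z7 (LOC4329726) are on chromosome 2, next to each other in the gene order of the RefSeq rice assembly ASM3414082v1. The gene that carries the name CYP76M7 there is LOC4341447 on chromosome 6, although CYP76M7 is known as a gene of the chromosome 2 cluster. Besides its name that entry lists 2 sequence tags, OsJ_21875 and OsJ_07204. Of 14 table entries with a tag numbered near the second one, 13 are on chromosome 2 and this is the only one on chromosome 6, while all 10 entries with a tag numbered near the first one are on chromosome 6. An unnamed gene, LOC4329723, sits in the chromosome 2 cluster between CYP76M8 and KSL7. Values given here for CYP76M7 are those of LOC4341447, and which of these loci its probe set measures was not tested.

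Values are log2 signals after the authors' robust multi-array average (RMA), and a step of 1 is a 2-fold difference. A level floor was set at the median of all values, a log2 signal of 5.51. A level under it is near background, and the size of a difference that uses it is uncertain. Of all genes, 15426 reached the floor on at least 1 array, the 3 genes among them, and these are the genes called above the floor when no array is named. Of the markers of the labelled tissue, shoots, 3 of 4 photosynthesis genes were above the floor on all arrays, up to a log2 signal of 14.32, with RBCS1 under it on all of them. Of 7 genes listed as root markers, 4 were under the floor on all arrays, and IRT1, Lsi1 and Lsi6 were above it on all. Whether these 3 genes are particular to roots was not tested, so their signal is not read as root tissue in the samples. IRT1, an iron transporter gene, had a log2 signal of 7.62 at 6 days and 7.67 at 1 day in M202(Sub1), against 7.997 at 6 days and 6.997 at 1 day in M202, so that it too was highest in M202 at 6 days and lowest in M202 at 1 day. Its part in the results was not tested. The median log2 signal of the arrays was 5.51 and 5.54 in M202(Sub1) at 6 days and 1 day, and 5.48 and 5.53 in M202. The actin 3′ probe set, a sign of RNA quality, was above the 5′ set by 3.46 at 6 days and 3.32 at 1 day in M202(Sub1), against 3.12 at 6 days and 3.12 at 1 day in M202, on the log2 scale. This gap was wider on both M202(Sub1) arrays, and its part in the results was not tested.

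CPS2 had a log2 signal of 6.11 at 6 days and 5.48 at 1 day in M202(Sub1), against 8.23 at 6 days and 3.48 at 1 day in M202. The M202 6-day array was the highest and the M202 1-day array the lowest, and both M202(Sub1) arrays lay between them. The genotype difference, M202(Sub1) minus M202, was -2.11 on the log2 scale at 6 days, which is 4.32-fold lower in M202(Sub1). At 1 day the sign was the opposite, with a log2 difference of 2.002 (4.01-fold higher in M202(Sub1)), but both 1-day levels were under the floor, the M202(Sub1) one by little. The time difference, 6 days minus 1 day, was 0.63 in M202(Sub1) (1.55-fold) and 4.75 in M202 (26.8-fold). With levels raised to the floor first, the time difference in M202 was 2.71 and the 1-day genotype difference was 0. In whole shoots, fewer cells that express a gene cannot be told apart from less RNA per cell.

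CYP71Z7 had a log2 signal of 6.51 at 6 days and 7.22 at 1 day in M202(Sub1), against 8.72 at 6 days and 5.85 at 1 day in M202. It is the one of the 3 genes that was above the floor on every array. Again the M202 6-day array was highest and the M202 1-day array lowest, but here the M202(Sub1) array of 6 days lay under that of 1 day. The genotype difference was -2.21 at 6 days (4.62-fold lower in M202(Sub1)) and 1.37 at 1 day (2.58-fold higher in M202(Sub1)). The time difference was -0.71 in M202(Sub1), against 2.86 (7.28-fold higher at 6 days) in M202.

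CYP76M7 had a log2 signal of 5.18 at 6 days and 5.30 at 1 day in M202(Sub1), against 7.55 at 6 days and 5.06 at 1 day in M202. Only the M202 6-day array was above the floor, and the other 3 arrays were within 0.24 of each other. Its genotype difference was -2.38 at 6 days (5.19-fold lower in M202(Sub1)) and 0.24 at 1 day. Its time difference was -0.12 in M202(Sub1), against 2.49 (5.63-fold) in M202.

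**Figure D1:**
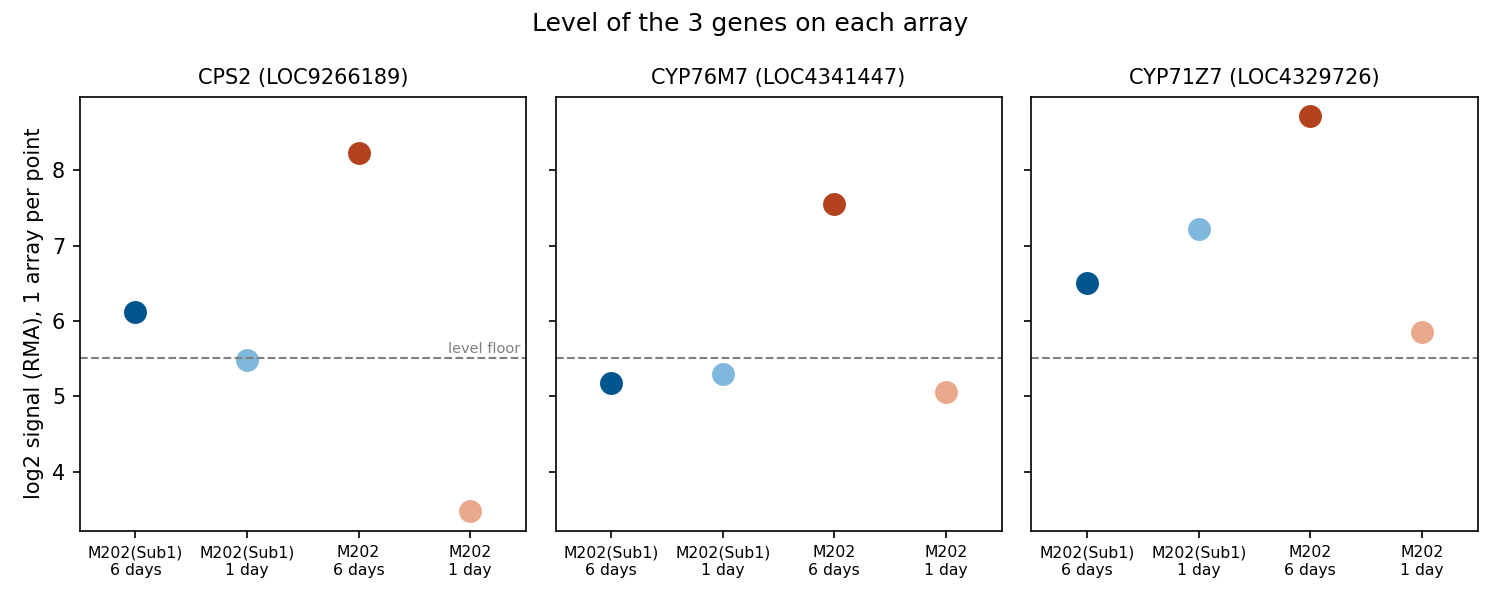
Log2 signal (vertical axis, RMA values) of CPS2, CYP76M7 and CYP71Z7 on each of the 4 arrays, 1 point per array with no error bar since each group has 1 array; the dashed line is the level floor of 5.51. In each panel the M202 6-day array is the highest, at 8.23, 7.55 and 8.72, and the M202 1-day array is the lowest.

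The differences that chose the 3 genes can be set beside those of all genes, with nothing read from the counts. All 3 were 2-fold or more lower in M202(Sub1) at 6 days, as were 2.18% of the 15426 genes, while 3.85% of genes were that much higher. At 1 day 2 of them reached 2-fold on the higher side, as did 0.778% of genes, with 1.01% on the lower side. Between times none was 2-fold apart in M202(Sub1), where 6.25% of genes reached that size on the higher side and 4.61% on the lower. In M202 all 3 were 2-fold or more higher at 6 days, as were 7.44% of genes, with 8.62% on the lower side. The time difference in M202(Sub1) minus that in M202 was -4.11 for CPS2, -3.57 for CYP71Z7 and -2.61 for CYP76M7. From the lowest value upwards these stood at places 4, 6 and 13 of all genes, and 1.59% of genes were at or below -1, with 4.2% at or above 1. With levels raised to the floor, the value was -2.11 for CPS2 and -2.04 for CYP76M7, whose places rest on levels under it. These differences share arrays, so they are not independent of each other.

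The 3 genes were not equally alike. Likeness was measured as the root mean square distance between log2 profiles over the 4 arrays, after each gene's own mean was taken off. CYP76M7 and CYP71Z7 were 0.41 apart, CPS2 and CYP71Z7 0.84, and CPS2 and CYP76M7 0.98. CYP76M7 was under the floor on 3 of the 4 arrays, so the size of its distances is uncertain. On the M202 1-day array CPS2 was farther below its own mean than the other two, at a level under the floor.

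Differences were uneven along the chromosome 2 cluster. Beside CPS2 and CYP71Z7, the neighbours with large differences were KSL7 and the unnamed LOC4329723. KSL7, the synthase that takes the CPS2 product, had a log2 signal of 5.15 at 6 days and 5.15 at 1 day in M202(Sub1), against 6.19 at 6 days and 4.42 at 1 day in M202. Only its M202 6-day level was above the floor, and its second probe set was under the floor on all arrays, with a genotype difference of 0.05 at 6 days. LOC4329723 had a log2 signal of 5.85 at 6 days and 6.66 at 1 day in M202(Sub1), against 7.79 at 6 days and 6.27 at 1 day in M202. Its genotype difference was -1.94 at 6 days and 0.39 at 1 day. In profile it was 0.45 from CYP76M7, 0.51 from CYP71Z7 and 1.30 from CPS2.

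Other genes of the same cluster had smaller differences or were near background. The P450 genes CYP76M8 and CYP76M6 were above the floor on all arrays, with genotype differences at 6 days of -0.31 and -0.24. CYP76M6 has another probe set, which gave -0.66. The CYP76M8 probe set is of a type that can pick up related sequences, so its value may mix genes. The same holds for the probe sets used for OsKO2, OsKS1, RLK10, Cht8 and Cht3 of the lists below, and for some tissue markers, Lsi6 among them. CYP71Z6, a P450 of the same subfamily as CYP71Z7 and known from the oryzalide branch, was between 2.69 and 3.05 on all arrays. CYP76M5 and the synthase gene KSL5 were also under the floor on all arrays, and KSL6 was not analysed here. Among the 30 genes nearest to CPS2 in the gene order, 16 were measured and 10 were above the floor. Of these 10, 3 were 2-fold or more lower in M202(Sub1) at 6 days (all genes: 2.18%), namely KSL7, LOC4329723 and CYP71Z7. CYP71Z7 was itself chosen for this difference. KSL7 reached the floor on the M202 6-day array alone, the array on which it is high, so nothing is read from the count. RIBA2, a gene of riboflavin synthesis near the cluster, was 2-fold apart between times, at 1.31 in M202(Sub1) and 1.45 in M202, and it differed between genotypes by 0.03 at 6 days.

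**Figure D2:**
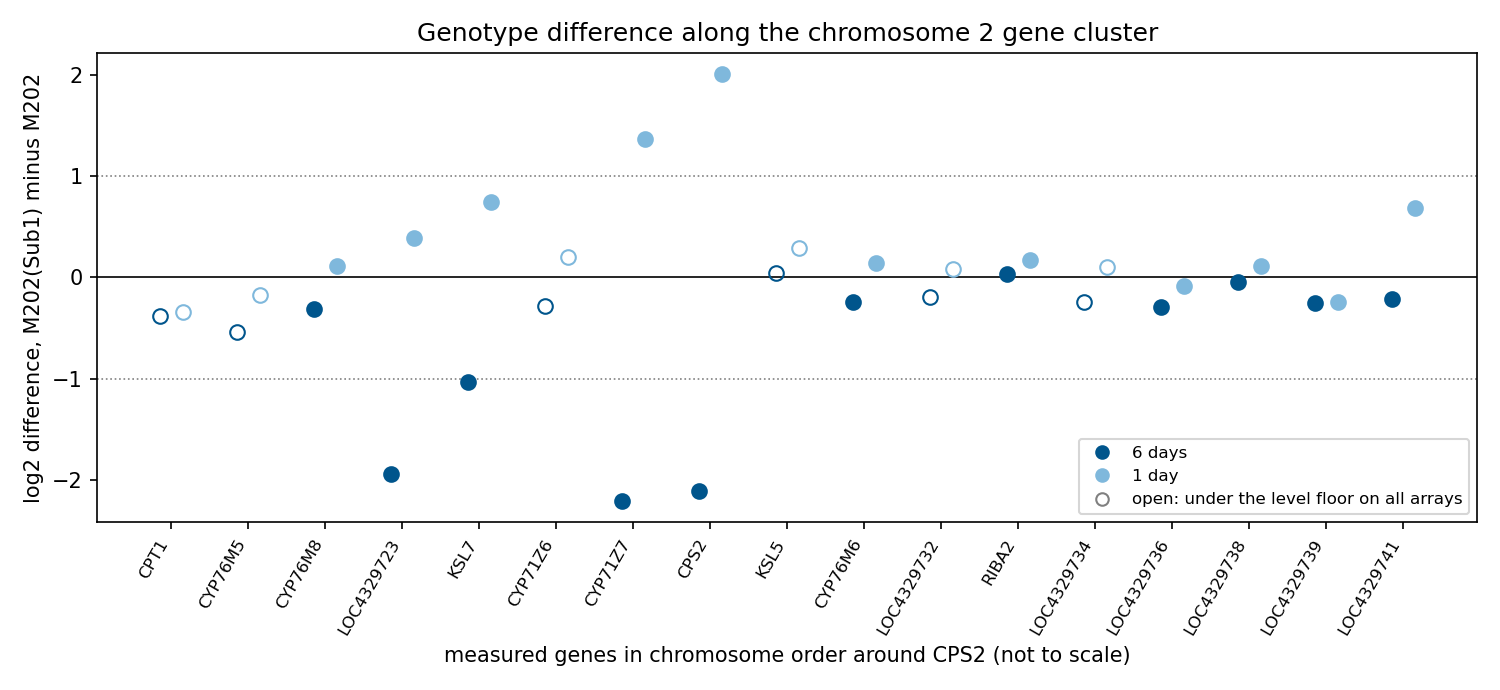
Log2 difference M202(Sub1) minus M202 (vertical axis) at 6 days (dark) and 1 day (light) for the measured genes around CPS2, in chromosome order and not to scale; open points are genes under the level floor on all arrays and dotted lines mark 2-fold. CPS2, CYP71Z7, KSL7 and LOC4329723 lie at or below -1 at 6 days, with CYP71Z6 between KSL7 and CYP71Z7 at -0.28.

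Around LOC4341447 on chromosome 6, where the annotation places CYP76M7, 15 of the 30 nearest genes were measured and 14 were above the floor. None of the 14 was 2-fold apart between genotypes at either time, a count near the shares over all genes (3.85% higher and 2.18% lower at 6 days), so nothing is read from it. LOC4341453 was the one that was 2-fold apart in some difference, with -1.12 between times in M202.

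The other diterpenoid phytoalexin genes were then described as a list that leaves out the 3 genes. The list had been drawn up with earlier results of these arrays known, so its direction is not independent evidence. Of 14 measured genes 10 were above the floor, but KSL7, OsMAS, KSL4 and CYP701A9 reached it on the M202 6-day array alone. These 4 were let in by the array on which they are high, so counts are given over all 14 genes and over the 6 that reached the floor on another array as well. In the genotype difference at 6 days 13 of the 14 were below 0, with a median of -0.77 (0.00 over all genes above the floor). In that difference 6 of the 14 were 2-fold or more lower in M202(Sub1), and 2 of the 6, CYP99A2 and CYP701A8, against 2.18% of all genes above the floor. At 1 day 12 of the 14 were above 0, with a median of 0.27 (all genes: -0.01). CPS4 was the only one 2-fold apart, at 1.01 (all genes: 0.778% higher and 1.01% lower), and nothing is read from 1 gene. The median time difference over the 14 was 0.09 in M202(Sub1). There 1 gene was 2-fold higher at 6 days (all genes: 6.25% higher and 4.61% lower), a count near those shares. In M202 the median was 1.42, and 8 of the 14 and 4 of the 6 were 2-fold or more higher at 6 days (all genes: 7.44%). The M202 6-day array was highest and the M202 1-day array lowest in 10 of the 14 and in 6 of the 6, an order found in 11.2% of all genes above the floor. Both a time difference of 1 or more in M202 and a genotype difference of -1 or less at 6 days were found in 6 of the 14 and in 2 of the 6, with 0.83% over all genes above the floor. These counts come from 4 shared arrays and from genes that may vary together.

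The momilactone genes lie close together on chromosome 4, and all 5 measured were above the floor. CPS4, which feeds this pathway, had a log2 signal of 7.22 at 6 days and 6.31 at 1 day in M202(Sub1), against 8.17 at 6 days and 5.29 at 1 day in M202. The synthase gene KSL4 had 4.29 and 3.65 at 6 days and 1 day in M202(Sub1), against 6.04 and 3.65 in M202, with 3 of 4 levels under the floor. The P450 gene CYP99A2 had 6.08 and 5.94 in M202(Sub1), against 7.62 and 5.31 in M202. Their genotype differences at 6 days were -0.95, -1.74 and -1.54, and those of the P450 gene CYP99A3 and the momilactone synthase gene OsMAS were -0.59 and -1.03. None was 2-fold higher at 6 days in M202(Sub1) (median 0.65, all genes 6.25%), a count near that share, and all 5 were in M202 (median 2.31, all genes 7.44%). KSL4 and OsMAS reached the floor on the M202 6-day array alone.

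The kaurene oxidase-like P450 genes CYP701A8 and CYP701A9 of chromosome 6 were alike in direction. CYP701A8, whose enzyme hydroxylates defence diterpenes, had a log2 signal of 6.59 at 6 days and 4.89 at 1 day in M202(Sub1), against 8.37 at 6 days and 4.27 at 1 day in M202. It was the one gene of the list that was 2-fold higher at 6 days in M202(Sub1), by 1.70, against 4.11 in M202. CYP701A9 had a genotype difference of -1.28 at 6 days. KSL10, the synthase gene for oryzalexins, was under the floor on all arrays.

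**Figure D3:**
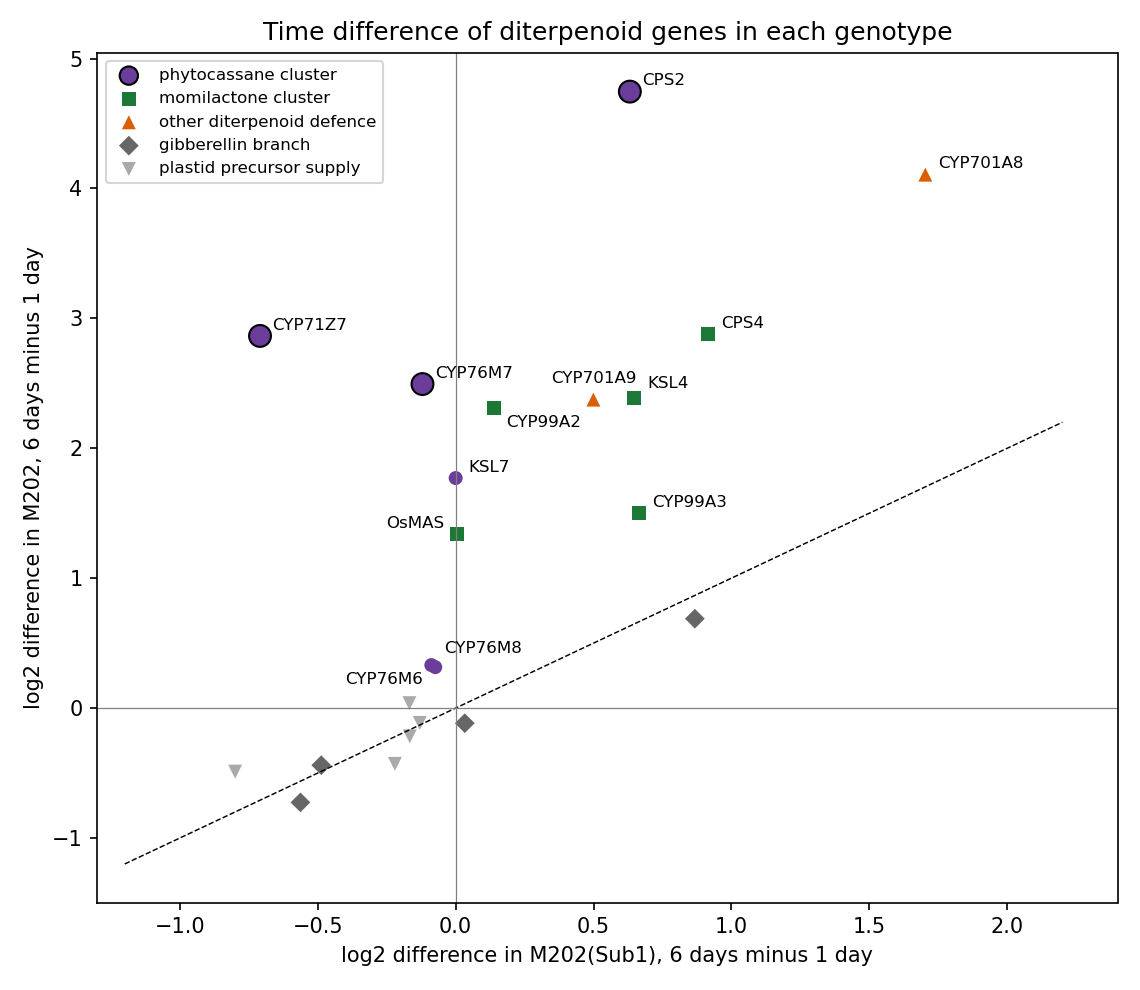
Log2 difference between 6 days and 1 day in M202(Sub1) (horizontal axis) and in M202 (vertical axis), 1 point per gene above the level floor, by list; the dashed line marks equal differences and outlined large points are CPS2, CYP76M7 and CYP71Z7. The phytoalexin genes shown lie above the line, from CYP76M8 and CYP76M6 near it to CPS2 at 0.63 and 4.75, while the gibberellin and precursor genes lie near it. CYP76M7, KSL7, OsMAS, KSL4 and CYP701A9 are shown only because they reached the floor on the M202 6-day array, which also sets their side of the line. CPS2, CYP76M7 and CYP71Z7 were chosen by such differences, so nothing is read from the side on which the genes lie.

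Genes of gibberellin synthesis draw on the same precursor as CPS2. Of 4 measured (CPS1, OsKS1, OsKO2 and CYP88A5), none was 2-fold apart in any of the differences. With so few genes that count is near the shares over all genes, which run from 0.778% to 8.62% in each direction, and nothing is read from it. CPS1, which makes the same product as CPS2 for hormone synthesis, had a log2 signal of 6.85 at 6 days and 7.41 at 1 day in M202(Sub1), against 7.08 at 6 days and 7.81 at 1 day in M202. OsKO2, a kaurene oxidase gene on chromosome 6 like its relative CYP701A8, differed by 0.10 between genotypes at 6 days. Of 5 measured genes of the plastid pathway that supplies the precursor (DXR, CDPMEK, ISPF, ISPG and ISPH), none was 2-fold apart either, which is again near those shares, with genotype differences at 6 days from -0.29 to 0.13. Outside the list, and picked after their values were seen, are DXPS (LOC4342614) and CLA1 (LOC4338768), genes for the deoxyxylulose phosphate synthase that starts this pathway. DXPS had a log2 signal of 7.73 at 6 days and 6.26 at 1 day in M202(Sub1), against 8.03 at 6 days and 5.60 at 1 day in M202, and so was higher at 6 days in both genotypes, by 1.47 in M202(Sub1) and 2.43 in M202. CLA1 had a log2 signal of 10.26 at 6 days and 10.76 at 1 day in M202(Sub1), against 9.80 at 6 days and 10.55 at 1 day in M202. Its time difference was below 0 in both genotypes, and its genotype difference at 6 days was 0.45.

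Of 12 measured genes matched by symbol or synonym to regulators of phytoalexin synthesis, 11 were above the floor. MPK1, MPK7, OsMAP3, RLK9 and RLK10 came in through another of their names, so some of the 12 may not be the known regulators. DPF, TGAP1, WRKY45 and WRKY53, known regulators whose names matched no entry, were not analysed here. Of the 11, none was 2-fold apart between genotypes at 6 days (all genes: 3.85% higher and 2.18% lower), a count near those shares. At 6 days against 1 day 5 were 2-fold or more higher in both genotypes (all genes: 6.25% in M202(Sub1) and 7.44% in M202). The transcription factor gene WRKY62 had the most negative difference between time differences among them (-1.49), with a log2 signal of 7.83 at 6 days and 6.50 at 1 day in M202(Sub1), against 8.27 at 6 days and 5.46 at 1 day in M202. WRKY76, a repressor of phytoalexin genes, was higher at 6 days by 2.32 in M202(Sub1) and 2.63 in M202. The time difference of the mitogen-activated kinase gene MPK5 was 2.25 in M202(Sub1) against 1.25 in M202, and that of WRKY71 was 2.94 against 1.70. The chitin receptor gene CEBIP was higher at 6 days by 2.001 in M202(Sub1) and 1.58 in M202. TGAL4, which carries the synonym OsbZIP79, was under the floor on all arrays. Whether any of these time differences differed between genotypes was not tested.

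The genes nearest in pattern to each of the 3 genes were named from all 15425 others above the floor, keeping those with an informative symbol. For CPS2 they were CYP701A8 (distance 0.51, and the nearest of all genes), CPS4 (0.67), the chitinase gene Cht5 (0.68), ITPK4 (0.70), an inositol phosphate kinase gene, and the heat shock factor gene HSFC2A (0.74). No gene came within 0.5 of CPS2. The distance keeps the size of a change, and CPS2 had the widest range of the 3 genes over the arrays, at 4.75. Its M202 1-day level of 3.48 was under the floor, so the size of its distances is uncertain. For CYP76M7 they were the chitinase gene Cht1 (0.29), KSL4 (0.29), CYP99A2 (0.33), the ammonium transporter gene AMT3-2 (0.35) and the chitinase gene Cht8 (0.36), and 58 genes came within 0.5. For CYP71Z7 they were the pathogenesis-related gene PBZ1 (0.33), Cht8 (0.35), CYP99A2 (0.36), CYP76M7 (0.41) and CYP701A9 (0.46), and 15 genes came within 0.5. CYP76M7, KSL4 and CYP701A9 were under the floor on 3 arrays and reached it only on the array where they are highest. Genes near background elsewhere and let in by that array can be alike for this reason, so nothing is read from their distances. How many of the 58 genes near CYP76M7 were let in this way is not given here. A distance over 4 arrays is a description, and it says nothing of shared control. With Pearson's correlation as the measure, 0 of the 5 named genes were the same for each of the 3 genes, so the names depend on the measure.

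**Figure D4:**
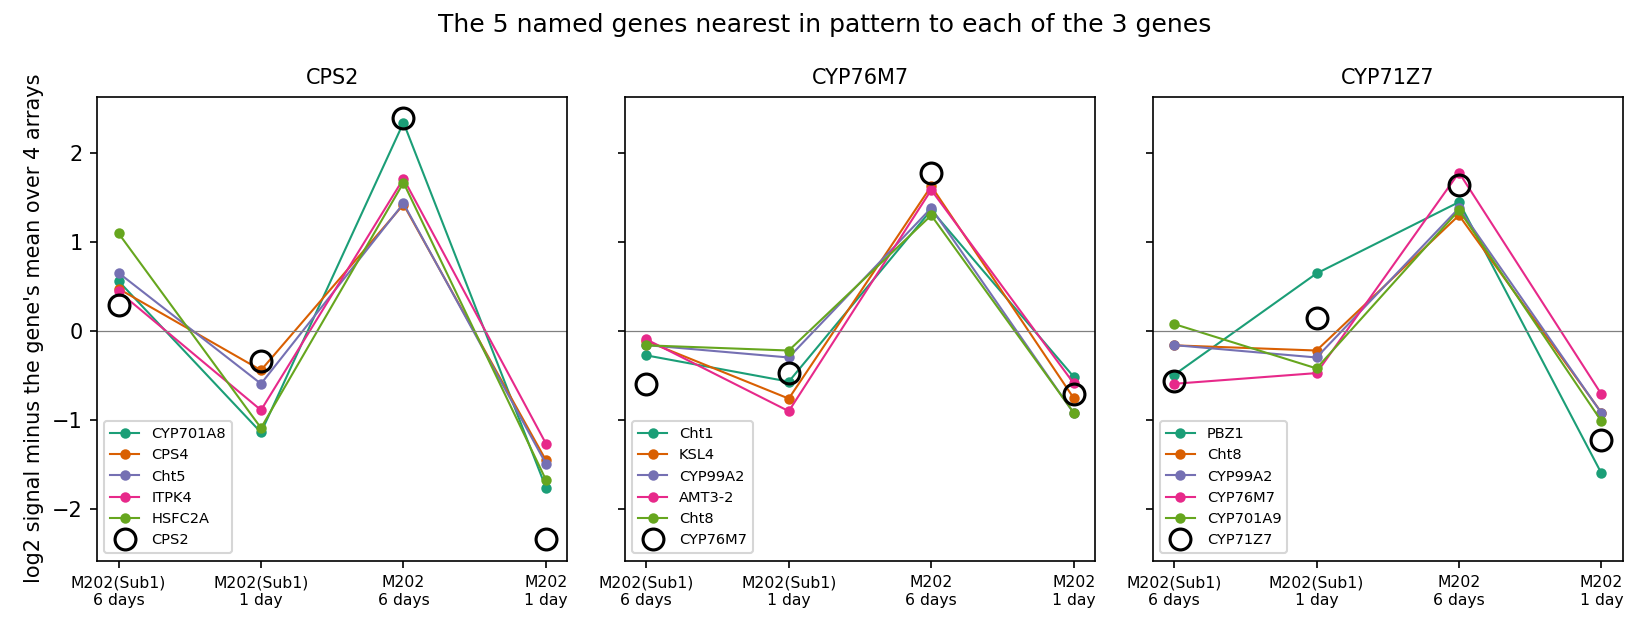
Log2 signal minus each gene's mean over the 4 arrays (vertical axis) for CPS2, CYP76M7 and CYP71Z7 (open black circles) and the 5 named genes nearest to each (coloured points, joined only to guide the eye); each point is 1 array. All profiles peak on the M202 6-day array, and CPS2 lies under its 5 nearest genes on the M202 1-day array. CYP76M7, KSL4 and CYP701A9 reached the level floor on the M202 6-day array alone.

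PBZ1, Cht1 and Cht8 belong to a list of inducible defence genes, of which 7 were measured and 6 were above the floor. Apart from PBZ1 its measured genes are all chitinase genes, and other defence gene families were not analysed here. Of the 6, 5 were 2-fold or more lower in M202(Sub1) at 6 days (median -1.44, all genes 2.18%). The list was drawn up with earlier results of these arrays known, and PBZ1, Cht1 and Cht8 were named above for their pattern. The count is therefore a description and not independent evidence. The chitinase gene Cht10 was as much lower at 1 day (-1.04) as at 6 days (-1.06), and Cht11 was higher in M202(Sub1) at both times, by 0.24 at 6 days and 1.20 at 1 day. PBZ1 had a log2 signal of 10.37 at 6 days and 11.51 at 1 day in M202(Sub1), against 12.31 at 6 days and 9.26 at 1 day in M202. The array also carries 10 control probe sets whose names mark the rice blast fungus (Mgr), an agent that induces phytoalexins. Their median log2 signal was 5.46 at 6 days and 5.43 at 1 day in M202(Sub1), against 5.36 at 6 days and 5.51 at 1 day in M202. At 6 days the genotype differences of the 10 sets lay between -0.13 and 0.23, and between times in M202 they lay between -0.27 and 0.46. None of these sets was 2-fold apart, a count near the shares over all genes (3.85% higher and 2.18% lower between genotypes at 6 days). Their medians also lay near the floor of 5.51, so nothing is read from the count. Whether the fungus was present was not tested, and other microbes were not analysed here.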

How the data were processed

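Per the submitters' processing notes, the authors made the deposited values with RMA, which corrects background, forces arrays to 1 distribution and summarises each probe set as a log2 signal. Its version is not given in the sources used here. Probe sets were named from the platform annotation and the RefSeq table of ASM3414082v1, which was used for names and gene order only. Where a gene had several probe sets, the one with the highest mean over the arrays was used. Differences are M202(Sub1) minus M202 and 6 days minus 1 day, counted from 2-fold (log2 of 1). Since each group has 1 array, nothing was tested, and the number of arrays limits precision.

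The genes and lists were chosen with earlier results of these data known. After matching, 1 gene each was taken off the precursor and gibberellin lists because a synonym had matched the wrong gene. Named genes were the 3 genes, list members, the 5 nearest named genes by profile distance, and neighbours in the gene order that were 2-fold apart. Outside this rule, DXPS, CLA1, LOC4335086, LOC4349113, LOC4352852 and the neighbours of PBZ1 were named after results had been seen. Calculations were checked on simulated data. Alternatives were other scalings, level floors, probe set choices and Pearson's correlation as the likeness. Python 3.11.15, numpy 2.4.6 and pandas 2.3.3 were used.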

Additional observations from a re-analysis of the deposited data

Results flagged for a closer look

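Listed here are 5 genes with a genotype difference of at least 2-fold in opposite directions at the 2 times. They had been chosen or noticed for their pattern. The share of all genes with such a reversal is not given here, so nothing is read from the count. CPS2 differed by -2.11 at 6 days and 2.002 at 1 day (a difference between time differences of -4.11), CYP71Z7 by -2.21 and 1.37 (-3.57), and PBZ1 by -1.94 and 2.25 (-4.19). The PBZ1 neighbours LOC4352487 and LOC4352488 differed by -1.59 and 1.45 (-3.04) and by -1.59 and 1.80 (-3.39). In PBZ1 the time difference was also opposite, at -1.14 in M202(Sub1) against 3.05 in M202. With 1 array per group these differences were not tested. The CPS2 value at 1 day uses levels under the floor, and those of the other 4 listed genes do not. The reversal is not particular to the listed genes. It was also seen in LOC4349113 (-2.05 at 6 days and 1.89 at 1 day) and LOC4352852 (-1.78 and 1.32), which are among the genes nearest to CYP71Z7 in profile. LOC4349113 had levels under the floor at both times.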

How the results depend on the processing

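The 15 differences of CPS2, CYP76M7 and CYP71Z7 kept their direction and their side of 2-fold under quantile normalization and median centring. They are the same by construction with the mean of all probe sets, since each gene has 1. With levels raised to the floor, 12 of the 15 kept their side of 2-fold and moved by less than 1.5-fold. In CPS2 the genotype difference at 1 day came to 0, the time difference in M202 to 2.71 and the difference between time differences to -2.11, since its 1-day levels are under the floor. The 10 other biosynthesis genes above the floor had medians of -1.03 between genotypes at 6 days and 2.04 between times in M202. For the difference between time differences the median was -1.75. In the same order, 6 were at least 2-fold lower, 8 at least 2-fold higher and 7 at or below -1 (all genes: 2.18%, 7.44% and 1.59%). KSL7, OsMAS, KSL4 and CYP701A9 are in each of these counts, and they reached the floor on the M202 6-day array alone. A floor at the 60th percentile left 3 genes at least 2-fold lower in M202(Sub1) at 6 days (median -0.95), 5 at least 2-fold higher at 6 days in M202, and 4 at or below -1 in the difference between time differences. Fewer than the 10 genes pass that floor, so the lower counts cannot be told apart from a shorter list. Shares over all genes are not given for it. Another alternative left out probe sets of types that may pick up related sequences, and with them CYP76M8 and CPS4. Then 6 genes were at least 2-fold lower in M202(Sub1) at 6 days and 7 at least 2-fold higher at 6 days in M202. In the difference between time differences 6 were at or below -1, and shares over all genes are not given for this alternative either. With no floor the medians were -0.77 at 6 days between genotypes, 1.42 between times in M202 and -1.08 for the difference between time differences. With Pearson's correlation in place of the distance, 0 of the 5 nearest named genes were the same for CPS2, 0 for CYP76M7 and 0 for CYP71Z7. With the mean of all probe sets, 5 were the same for CPS2, 4 for CYP76M7 and 5 for CYP71Z7. No paired analysis was possible because each group has 1 array and the labels carry no replicate numbers.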

Other observations

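PBZ1, one of the named genes nearest to CYP71Z7, has neighbours on chromosome 12 with a like profile, which was noticed after the distances had been computed. LOC4352487 had a log2 signal of 9.33 at 6 days and 9.56 at 1 day in M202(Sub1), against 10.92 at 6 days and 8.11 at 1 day in M202. At a distance of 0.24 it was the nearest of all genes to CYP71Z7. LOC4352488 had 9.05 and 9.06 in M202(Sub1), against 10.64 and 7.26 in M202, and was the second nearest of all genes to CPS2 at 0.54. LOC4352490, between these genes and PBZ1, had a difference between time differences, M202(Sub1) minus M202, of 0.33. All of these levels were above the floor, at 1 day too, where those of CPS2 were under it.

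LOC4335086, a gene near CPS4 on chromosome 4 that was picked after its values were seen, had a difference in the other direction, with a log2 signal of 6.06 at 6 days and 6.13 at 1 day in M202(Sub1), against 4.58 at 6 days and 6.27 at 1 day in M202. The M202 6-day level was under the floor.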
